A study of Homo sapiens with 24 samples.

Results

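The table that compares H3K27Ac between shANCO1 and shCTRL DCIS cells holds 44790 regions, all of which are described here, out of 171345 regions in the 6 tables of the series. H3K27Ac ChIP-seq sequences the DNA bound to histone H3 acetylated on lysine 27, and the comparison asks where that mark changes when ANCO1, the protein product of ANKRD11, is depleted. Each group had 3 immunoprecipitated libraries from MCFDCIS (DCIS), a derivative of the immortalized mammary epithelial line MCF10A (10A) used as a model of ductal carcinoma in situ at an early, triple-negative stage. The labels give the groups as ANCO1 knockdown (shANCO1) and an shGFP control hairpin (shCTRL). Both were lentiviral lines selected in puromycin. They were grown in the same horse serum medium with EGF, hydrocortisone, insulin and cholera toxin, were fixed with formaldehyde, and were pulled down with the same antibody. Where the study names a knockdown line for its H3K27Ac comparison it is shANCO1 #3, which carries a single hairpin, while the labels do not number it. Whether the 3 libraries of a group came from separate cultures is not given in the sources used here, so the deposited error covers only the spread between these libraries. The residual ANCO1 level in these cells was not measured by these data. The authors tested the 3 libraries of each group together and deposited 1 line per region, so the value in each library, its depth and the spread between replicates are unknown. A region's value is the log2 fold change of shANCO1 over shCTRL at a representative window, with the FDR of the authors' csaw test over all windows of the region.

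ANCO1 is a large nuclear protein that binds nuclear receptor coactivators and histone deacetylases and is known as a transcriptional corepressor. Acetylation of H3 lysine 27 is written by the acetyltransferases p300 and CBP and removed by histone deacetylases, and it marks promoters and enhancers in use. Mammary epithelial cells of basal type rely on p63, on hemidesmosomes and laminin-332 for attachment, and on EGFR ligands for growth. Their enhancers are often bound by AP-1, the FOS and JUN dimers, together with TEAD factors and their coactivators YAP and TAZ.

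The sequences that follow let a reader see what lies in some of the regions named below. They were chosen after the values were seen, for genes of adhesion, the epidermal programme and the cytokine group, and from regions that hold a match to the AP-1 letters TGANTCA (N is any base). Of the named regions outside 1 chromosome left out of the sequence search, 37 of 76 gains and 21 of 50 losses held such a match anywhere in the region, so the shown stretches are a selection and not a rule. Each run is 120 bases of GRCh38, plus strand, 5′ to 3′, from an intron or from between genes, and capitals mark every AP-1 match on either strand. The first 5 lie in regions that gained H3K27Ac and the last pair in regions that lost it. ITGB1 is integrin beta 1 (chr10:32980602-32980721, intron), LAMB3 a laminin-332 chain (chr1:209655901-209656020, upstream), TP63 encodes p63 (chr3:189824740-189824859, intron), PLAU is urokinase (chr10:73899092-73899211, upstream) and MICAL2 is an actin-oxidizing enzyme (chr11:12176014-12176133, intron). ITGA9 is integrin alpha 9 (chr3:37654039-37654158) and KIRREL3 a neural adhesion protein (chr11:126544329-126544448, intron).
ITGB1: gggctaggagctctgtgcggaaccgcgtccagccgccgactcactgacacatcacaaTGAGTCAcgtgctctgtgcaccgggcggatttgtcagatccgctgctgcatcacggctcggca
LAMB3: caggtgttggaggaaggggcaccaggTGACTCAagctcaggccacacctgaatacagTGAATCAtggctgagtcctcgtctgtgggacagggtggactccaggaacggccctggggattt
TP63: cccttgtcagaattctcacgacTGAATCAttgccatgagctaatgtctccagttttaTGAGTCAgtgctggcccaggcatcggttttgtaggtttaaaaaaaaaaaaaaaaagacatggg
PLAU: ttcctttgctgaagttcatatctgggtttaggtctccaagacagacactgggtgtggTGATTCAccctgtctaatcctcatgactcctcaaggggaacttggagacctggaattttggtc
MICAL2: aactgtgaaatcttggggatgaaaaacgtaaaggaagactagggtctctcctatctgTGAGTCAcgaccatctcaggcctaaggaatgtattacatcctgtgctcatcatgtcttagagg
ITGA9: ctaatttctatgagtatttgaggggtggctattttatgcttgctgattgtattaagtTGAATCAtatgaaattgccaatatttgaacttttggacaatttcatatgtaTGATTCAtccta
KIRREL3: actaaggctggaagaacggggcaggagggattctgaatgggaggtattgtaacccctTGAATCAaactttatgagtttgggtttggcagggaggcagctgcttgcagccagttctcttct

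IL1A, the gene of the cytokine interleukin-1 alpha, and IVL, the gene of involucrin, carried gains 93 bp and 246 bp from a start site. The 180 bases before their RefSeq starts (GRCh38.p14) are shown, again as a selection and not a rule. Other gains lay over a start itself. The same runs at FXYD5, ATOX1, ADAMTS6, BNC1 and IL24, which also held promoter-flagged gains, had no AP-1 match. Those at FXYD5, ATOX1 and ADAMTS6 lay in uncalled regions, away from the gains. Among genes with promoter-flagged losses, the run at ENTPD2 had 1 match. The runs at PLXDC2, VIT, SSBP3, NTRK2 and PIK3R1 had none, and of these only the PLXDC2 run lay inside a loss. The IL1A run is chr2:112784494-112784673 on the minus strand, next to a gain that ends at 112784400. The IVL run is chr1:152908366-152908545 on the plus strand, next to a gain that ends at 152908300. Each held 1 AP-1 match, in capitals.
IL1A: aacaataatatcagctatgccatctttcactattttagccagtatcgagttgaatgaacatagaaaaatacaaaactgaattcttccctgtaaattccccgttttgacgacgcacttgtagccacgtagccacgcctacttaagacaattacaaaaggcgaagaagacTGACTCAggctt
IVL: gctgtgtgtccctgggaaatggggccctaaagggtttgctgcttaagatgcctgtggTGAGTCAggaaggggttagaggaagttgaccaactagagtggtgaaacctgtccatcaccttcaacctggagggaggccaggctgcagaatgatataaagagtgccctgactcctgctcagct

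Calls here are made against the median of the table, because the zero of a fold change follows from the normalization, which is not stated, and the median region stood at 0.52. Log2 fold changes of named regions are the deposited values unless they are called centred. A centred log2 fold change is the deposited value minus that median. A gain is a region with FDR under 0.05 in the authors' csaw test, direction up, and a value at least 1 log2 unit above the median. A loss has direction down and lies at least 1 below it. The FDR tests each region against 0 and not against the median. By this rule 7295 regions (16.3% of all) gained H3K27Ac and 2175 (4.86%) lost it, and 35320 were called neither. Another 3272 regions were up by FDR but less than 1 above the median. On the losing side the limit was set by the test rather than by size, since 7044 regions lay at least 1 below the median without passing, against 92 on the gaining side. The gain limit fell in a dense part of the distribution, with 887 gains within 0.1 above it and 857 regions within 0.1 below it.

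**Figure D1:**
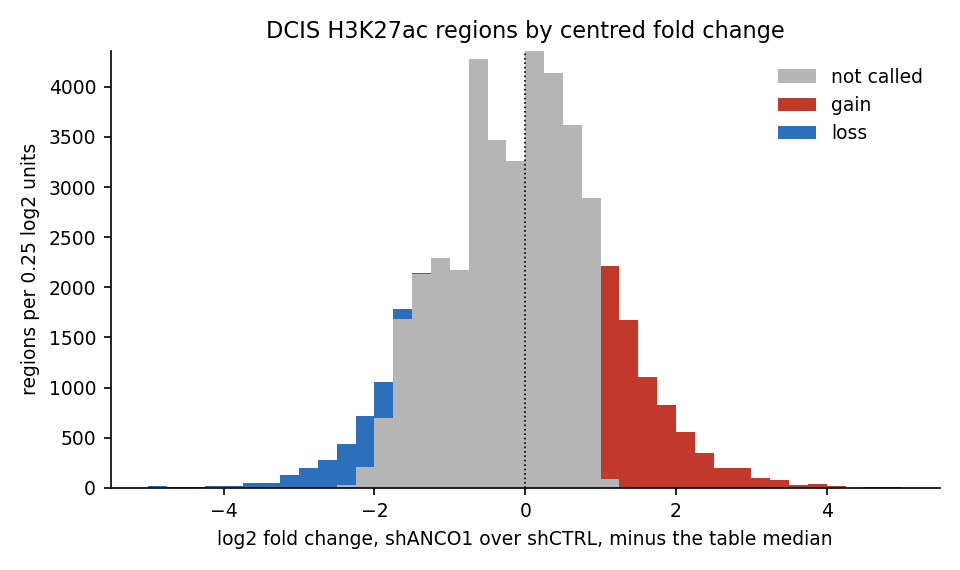
Number of regions (linear axis) by centred log2 fold change of H3K27Ac, shANCO1 over shCTRL in DCIS, coloured by call. The middle 50% of regions lay between -0.77 and 0.68, and gains form the right shoulder. Losses lie further from the median than most gains do, which the rule for calling a loss also favours.

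Gains and losses differed in shape. Gains had a median width of 900 bp, 7 tested windows and a median centred log2 fold change of 1.47. Losses were wider, at 1300 bp and 10 windows, and lay further out, at -2.30. In 60.7% of gains every window was up, whereas every window was down in 32.0% of losses. A loss therefore often covered windows that did not themselves pass. Regions of 1 or 2 windows made up 18.5% of gains and 14.3% of losses. Together the gains covered 9099.5 kb and the losses 3497.5 kb.

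The cells were compared with their label through genes of the basal mammary type and of other cell types. All 10 basal markers had at least 1 region in the table, and 9 of them, all but KRT14, overlapped a region enriched over input in each group. Among regions enriched in shCTRL cells, those at EGFR and TP63 reached log2 enrichments over input of 7.37 and 7.40. Of 13 immune and blood markers 5 had a region, and no region of CD14, CSF1R or HBB overlapped an enriched one. At CD68, a macrophage marker, 2 regions overlapped an enriched one in each group, and at CD79A, a B cell marker, 1 did. The CD79A region has the authors' promoter flag but lies downstream of the GENCODE gene, 4996 bp from a start site. Of 12 endothelial and fibroblast markers 7 had a region, with enriched regions at PECAM1, ACTA2 and, in shANCO1 cells, PDGFRA. Of 8 neural markers 5 had a region. The markers thus fitted the label for the basal type. Enriched regions at PECAM1 and MBP were present in both groups.

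ANKRD11, whose product was the target of the hairpin, had 16 regions, of which 5 gained H3K27Ac and none lost it. Centred values over the gene ran from -1.17 to 1.59. Its named region, in an intron 12774 bp from the start site (chr16:89476601-89477500), had a log2 fold change of 2.11 (csaw FDR 4.89e-04), and 2 of its 10 promoter-flagged regions were gains. A hairpin acts on RNA after transcription, so these values do not check the knockdown.

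Genes were counted through the names that the authors attached to each region. The overlap column names genes whose body or promoter a region touches, with flags for promoter, exon and intron, and the left and right columns name genes up to 10 kb away. The overlap column held 18021 genes, of which 3781 (21.0%) had at least 1 gain and 1145 (6.35%) at least 1 loss, with 251 in both counts. With the left and right columns added, 4696 of 19740 genes had a gain and 1413 a loss. Several gains within 1 gene were common, with 564 genes holding at least 3 gains and 151 at least 5. For losses those counts were 153 and 52. Genes with both a gain and a loss had a median of 10 regions, against 2 over all genes, so long genes with many regions fill this set.

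The 10 genes with the most gains were chosen by count among genes with gains in at least 50% of their regions and no loss. They share no single function, and several act on actin, adhesion or the matrix. MICAL2 had 13 gains in 17 regions, and its furthest region was up by 4.87 log2 units (csaw FDR 6.83e-12). TENM2, a teneurin adhesion receptor, had 12 gains in 13 regions spread over 522.5 kb, and SPOCK1, a matrix proteoglycan, had 12 in 15. MCF2L2, a guanine exchange factor of small GTPases, had 12 gains in 18 regions with a highest centred value of 2.28, lower than the peaks of the others except ASAP2. AIG1, a membrane lipid hydrolase, had 11 gains in 12 regions, and no region of it lay below the median. MGLL, which releases fatty acids from monoacylglycerols, had 11 in 13. NRG1, a ligand of the ERBB receptors, had 11 in 16 over 894.3 kb, and its start-site region rose by 3.68 log2 units (csaw FDR 6.26e-08). ASAP2, an ARF GTPase activator, had 10 in 19. FRMPD4, a scaffold protein of synapses, was called in all 10 of its regions. THSD4, a microfibril protein, had 10 in 17. Over the 10 genes together, 112 of 150 regions were gains, 28 of 39 promoter-flagged regions among them. The median centred value of a gene ran from 1.07 for THSD4 to 2.48 for FRMPD4. These regions overlapped one enriched over input in shANCO1 cells in 46 cases and in shCTRL cells in 12.

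The genes with the most losses, chosen in the same way, were fewer in regions. Their values lay further from the median, which the rule for calling a loss also favours. GPM6B, a proteolipid of neural membranes, had 13 losses in 17 regions and none above the median. SH3PXD2B, the podosome adaptor TKS4, had 10 losses in 14 regions. SDC2, the heparan sulphate proteoglycan syndecan 2, had 8 in 9, among them the region over its start site, which fell by 3.60 log2 units (csaw FDR 2.72e-08). PPARGC1A, the coactivator PGC-1alpha, had 8 in 14, although its furthest region lies 370424 bp from the GENCODE start and outside the GENCODE gene. ITPRID1 had 8 losses in 9 regions and SSBP3, a partner of LDB1 in transcription complexes, 8 in 15. KIRREL3 had 7 in 14, and its furthest region fell by 4.19 log2 units (csaw FDR 1.22e-07). NTRK2, the BDNF receptor, had 7 in 14, with 6 of its 11 promoter-flagged regions lost. ITGA9 had 6 losses in 7 regions and VIT, the matrix protein vitrin, in all 6. Over these genes 81 of 119 regions were losses, and the median centred value of a gene ran from -3.57 for SDC2 to -1.81 for NTRK2. Regions enriched over input in shCTRL cells were overlapped in 52 cases and in shANCO1 cells in 11. Both sets were chosen by their counts, so the counts are a description.

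**Figure D2:**
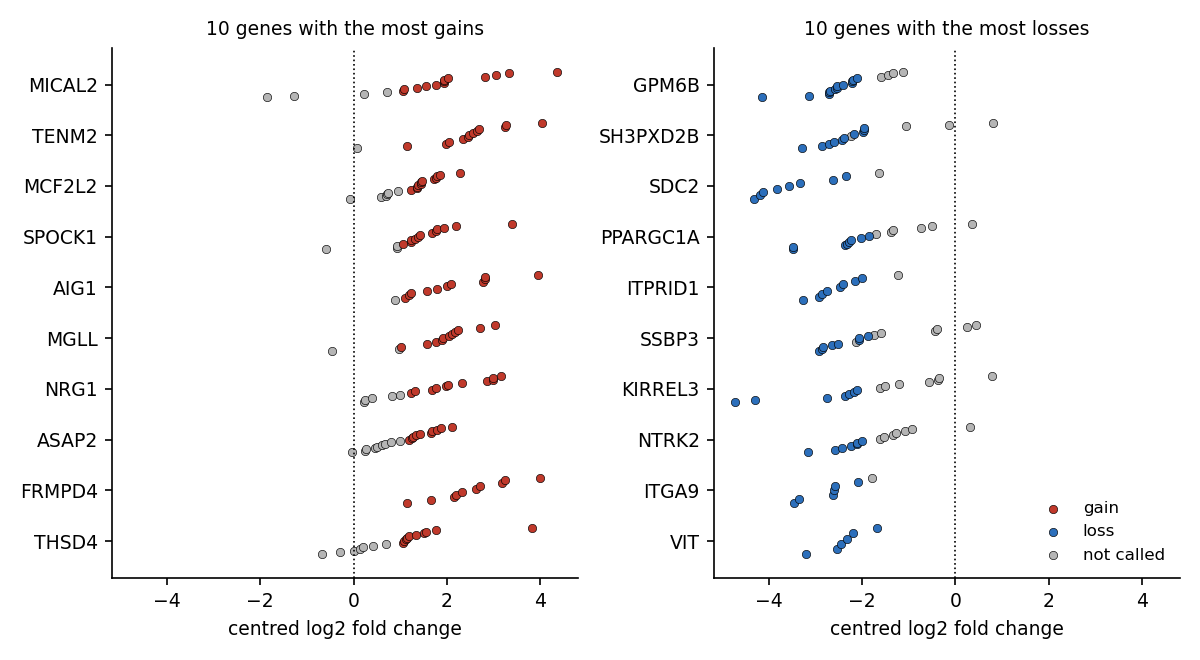
Centred log2 fold change of each region (points, coloured by call) over the 10 genes with the most gains and the 10 with the most losses. Genes with the most gains (left) have nearly all points above 0, up to 4.35 at MICAL2, and genes with the most losses (right) nearly all below, down to -4.71 at KIRREL3.

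Position relative to genes separated the calls. Promoter-flagged regions were 51.4% of the table but held 32.7% of gains and 34.7% of losses. Of 23037 promoter regions 10.4% gained H3K27Ac (Wilson 95% interval 9.98 to 10.8) and 3.27% lost it. Gains made up 24.9% of exon regions, 21.9% of intron regions, 23.3% of regions with a gene only in the left or right column, and 22.9% of regions with no gene named. Losses made up 7.61%, 5.59%, 6.01% and 7.98% of the same classes. The share gained at promoters was thus lower than in every other class, and the promoter share of losses was lower too. Width did not set the order for gains, since promoter regions gained in 9.96% to 11.2% of cases in each of 4 width ranges, against 19.7% to 27.1% for introns and 21.7% to 26.3% where no gene was named. For losses width mattered within classes. Over 2000 bp, losses were 4.76% of promoter, 11.02% of intron and 14.7% of no-gene regions. Intervals cover counting error over regions, and neighbouring regions are not independent. Of genes with a gain, 1567 had it only outside their promoter-flagged regions, and in 1058 of these a promoter region had been tested. For losses these counts were 409 and 272.

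**Figure D3:**
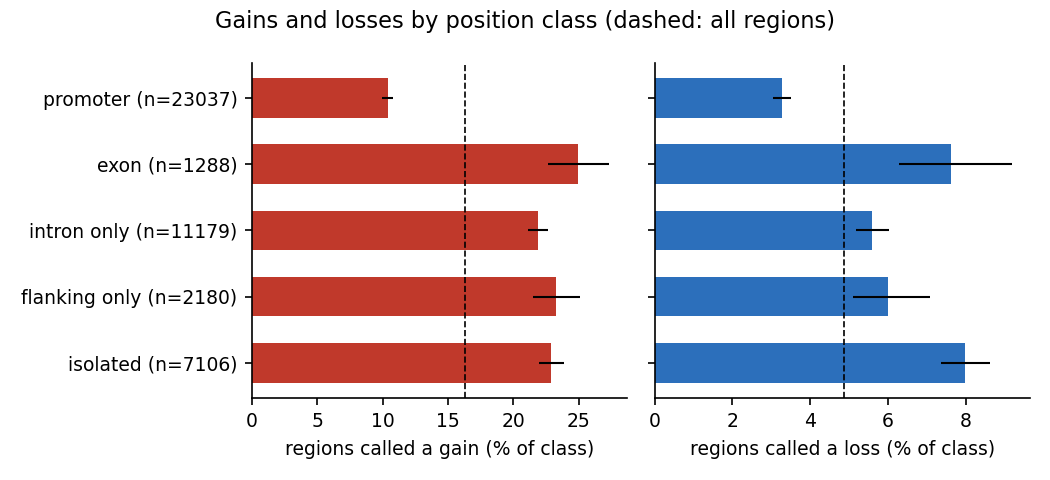
Percent of regions called gain or loss in each position class, with Wilson 95% intervals as error bars and dashed lines at the share over all regions (flanking only: a gene only in the left or right column; isolated: no gene named). Promoter regions have the lowest share of both, 10.4% and 3.27%.

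The promoter-flagged gains furthest from the median named genes of several kinds. PDCD1LG2, the PD-1 ligand PD-L2, had a region 931 bp before its start that was up by 7.03 log2 units (csaw FDR 6.90e-12), and both of its regions were gains. FXYD5, which regulates the sodium pump and cell adhesion, was up by 5.88, and UCA1, a long non-coding RNA, by 4.75 over its start. IL1A was up by 4.64 within 93 bp of its start (csaw FDR 1.04e-13), with both of its regions gained. ATOX1, a copper chaperone, was up by 4.79, and FRMD4B, a FERM-domain scaffold, by 4.55. ADAMTS6, a secreted metalloproteinase, was up by 4.77. ADAMTS6, ATOX1 and TENM2 lay away from the start that GENCODE gives, by 283120 bp, 9718 bp and 3998 bp in that order, so the authors' flag and the annotation used here differ there. UCA1 and IL1A were gained at or beside the start itself.

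The promoter-flagged losses furthest from the median reached similar sizes. PLXDC2, a plexin-domain membrane protein, fell by 4.61 log2 units over its start (csaw FDR 1.22e-06), but 3 of 13 windows were down and its other 8 regions included 1 loss. FMO6P, a pseudogene of the flavin monooxygenases, fell by 3.88 with all 31 windows down, and ENTPD2, an ectonucleotidase, by 3.87. Reads from a pseudogene can belong to a near copy, so the FMO6P region and the aldehyde oxidase pseudogene region of AOX3P-AOX2P (-3.14) are uncertain. TRERNA1, a non-coding RNA, fell by 3.26 in its single region and SMOX, spermine oxidase, by 3.18. ARHGAP25, a GTPase-activating protein, had a region at -3.49 with 2 windows up and 7 down, beside 1 gain elsewhere in the gene. SMOX and AOX3P-AOX2P also held gains, 1 and 4, so loss at these genes was not uniform. AOX3P-AOX2P lay 13023 bp from its GENCODE start and TRERNA1 4997 bp.

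Gene groups of epithelial function were read through 24 lists, each set beside the 16.3% gained and 4.86% lost over all regions. A list share counts regions, and no test of a list was made. The shares over all regions do not allow for position, and the lists differ in how many of their regions are promoter-flagged. For 10 of the 24 the gained share was above that of all regions, and neither the lists nor their genes are independent of earlier results.

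Cell junctions, the adherens, tight and desmosomal contacts, had gains in 36 of 104 regions (34.6%) and losses in 2, at 13 of 22 genes, with a median centred value of 0.59. NECTIN4, an adhesion protein of adherens junctions, was gained in all 6 of its regions, with log2 fold changes from 1.92 to 2.87. CLDN1, a tight junction claudin, was gained in all 3 and PKP1, a desmosomal plakophilin, in 5 of 7. NECTIN1 had 5 gains in 9 regions. F11R, a tight junction protein, had 3 of 5, and the region at its 3′ end was up by 3.06 (csaw FDR 4.97e-15). Catenins went both ways. The start of CTNNB1, beta-catenin, fell by 1.96 with 5 of 29 windows down (csaw FDR 0.0313), and CTNNA1, alpha-catenin, had 2 gains and 1 loss in 16 regions. The enriched regions that overlapped these losses did not stand lower over input in shANCO1 cells. Their log2 enrichments were 7.50 in shANCO1 and 4.67 in shCTRL cells at CTNNB1, and 5.31 and 5.03 at CTNNA1.

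Epidermal differentiation genes, which build the cornified envelope, had gains in 10 of 33 regions (30.3%) and 1 loss, at 6 of 19 genes. IVL was gained in all 3 of its regions, by 3.84 at the one nearest the start. SPRR1B rose by 2.53 in a region that also lies within 10 kb of SPRR2D, and SPRR3, SPRR2E, S100A2 and TGM1, the keratinocyte transglutaminase, each held a gain. The SPRR genes are near copies of one another, so reads could be split between them. SCEL, sciellin of the same envelope, had 1 loss in 4 regions, at -1.62. KRT10, a keratin of the differentiated layers, had no called region over it, and a region near it had a log2 fold change of -1.71 (csaw FDR 0.0457).

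Cytokines and chemokines had gains in 15 of 45 regions (33.3%) and no loss, at 8 of 18 genes. Beside IL1A, the regions at IL24 and CSF2 (GM-CSF) rose by 3.18 and 3.18 log2 units, each gene gained in both of its regions. IL6R, the interleukin-6 receptor chain, had 4 gains in 8 regions, and IL1RAP, OSMR, CSF3 and TNFSF10 (TRAIL) held 1 or 2 each. CXCL8, interleukin-8, had a region over its gene body at 1.36 that did not pass (csaw FDR 0.178). No region at IL1A, IL24 or CSF2 overlapped a region enriched over input in shCTRL cells. Promoter-flagged regions of the list were gained in 23.5% of cases and its other regions in 63.6% of 11.

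**Figure D4:**
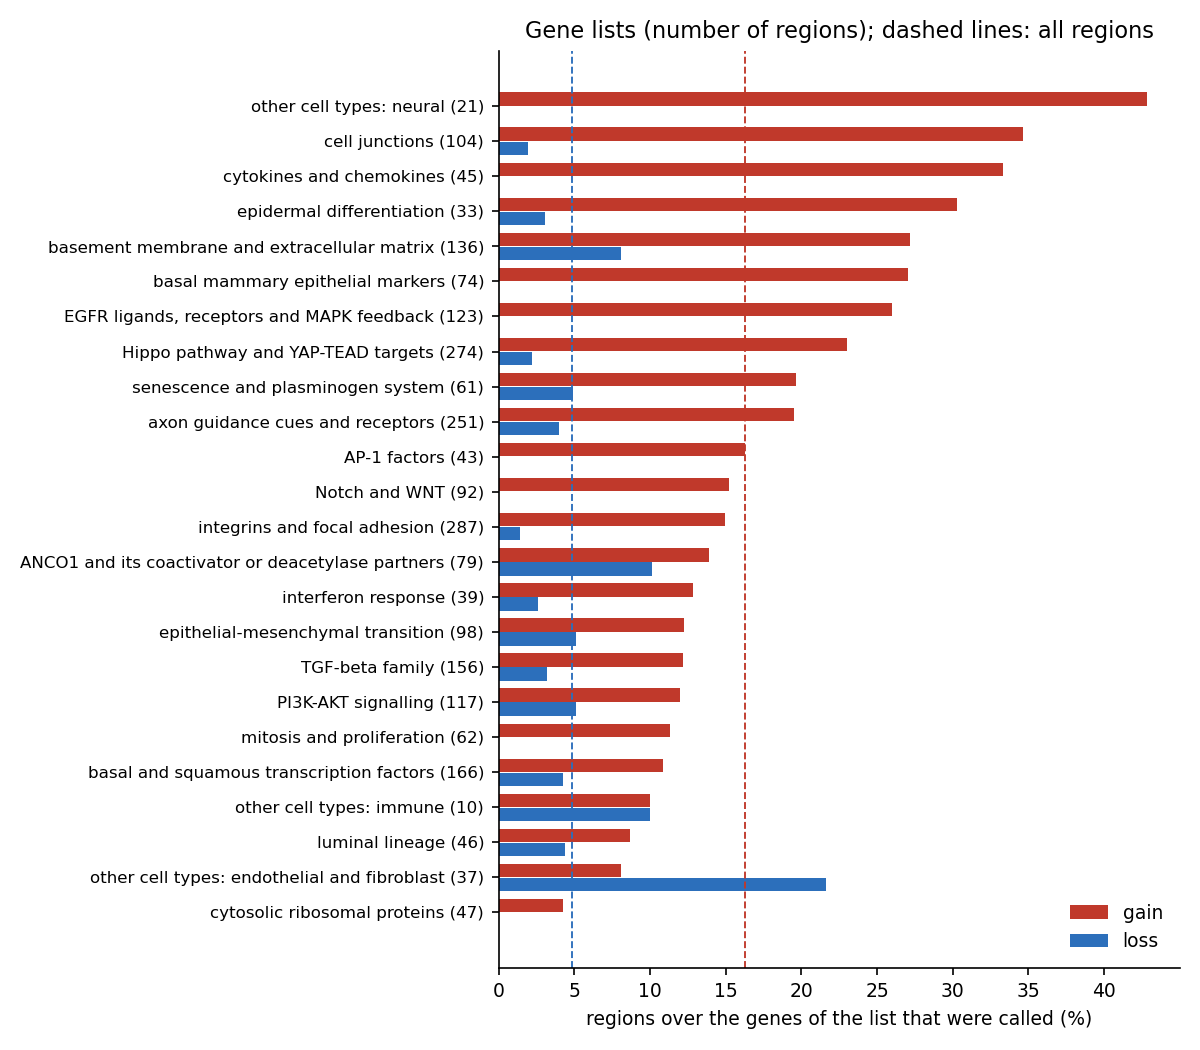
Percent of regions gained (red bars) and lost (blue bars) over the genes of each list, with the number of regions in brackets and dashed lines at the shares over all regions, 16.3% and 4.86%. Neural markers, cell junctions and cytokines have the highest gained shares, and endothelial and fibroblast markers the highest lost share, all of it from PECAM1.

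Ligands and receptors of the EGFR and MAPK group were gained in 32 of 123 regions (26.0%) and lost in none, at 9 of 26 genes. Among ligands, NRG1 held 11 gains, HBEGF 3 of 3 (2.19 to 2.79) and TGFA 2 of 11. Among receptors, EGFR had 5 gains in 18 regions, all at log2 fold changes from 1.55 to 2.12, while MET, the receptor of hepatocyte growth factor, had 4 in 5. ERBB4 had its only region gained, at 3.38, in an intron 1129930 bp from the start. That region had no overlap with one enriched over input in either group. ERBB2 had 1 of 4. Among feedback inhibitors, SPRED2 had 4 of 9 gained, up to 4.43 (csaw FDR 1.09e-11), and DUSP1 1 of 5. Gains fell mostly away from promoters, with 13.0% of promoter-flagged regions against 42.6% of the others.

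Basal mammary markers were gained in 20 of 74 regions (27.03%) and lost in none. TP63 rose in 5 of 13 regions, and the shown intron region was up by 2.43 (csaw FDR 1.49e-05), while its lowest region, at -1.55, did not pass (csaw FDR 0.0878). CDH3, P-cadherin, had 2 gains in 7, LAMB3 3 in 5, KRT14 1 in 2 and SFN 2 in 4. The wider list of basal and squamous transcription factors did not share this pattern, with 10.8% gained and 4.22% lost. In it BNC1, basonuclin, was gained in all 3 regions and SOX15 in 2 of 3, whereas GRHL3, an epidermal regulator, lost 3 of 11, TBX2 its only region and SOX9 1 of 3. EHF, an epithelial ETS factor, rose by 2.97 over its start and fell by 1.66 in an exon further in (csaw FDR 0.0498).

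Genes of the basement membrane and extracellular matrix were gained in 37 of 136 regions (27.2%) and lost in 11 (8.09%), above the background in both directions. Gains were found at the laminin genes LAMA3 (5 of 9) and LAMB3 (3 of 5), at the hemidesmosome and anchoring fibril collagens COL17A1 and COL7A1, both regions gained in the latter, and at LOXL2, a lysyl oxidase (5 of 8). ADAMTSL1 held the gain furthest from the median in the list, with a deposited log2 fold change of 7.80, and 3 losses down to -2.53 in the same gene. VCAN, the proteoglycan versican, fell in all 3 of its regions, by 1.57 to 2.40. THBS1, LAMA5, LAMC1, LOX and FBN2 each had 1 loss, and FBN2 and LAMC1 also held gains.

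Integrins and focal adhesion genes had a gained share near the background, 15.0% of 287 regions, and a lost share of 1.39%, below the 4.86% of all regions. ITGB1 was the exception by count, with 9 gains in 12 regions and a region up by 5.35 log2 units (csaw FDR 2.56e-10). SRC, the tyrosine kinase, had 4 of 7, DST, the hemidesmosome linker dystonin, 5 of 29, and VCL, vinculin, 3 of 7. PARVA, alpha-parvin, lost 2 of 4 regions, to -3.10, and CAV2, caveolin 2, had 4 gains and 2 losses in 21.

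Hippo pathway genes and YAP-TEAD targets had gains in 63 of 274 regions (23.0%) and losses in 6, at 18 and 4 of 33 genes. The gains lay at regulators of the pathway, AMOTL1 (7 of 8), WWC1, which encodes KIBRA (7 of 14), and the kinase STK3 (9 of 14), and at targets, NT5E (5 of 6, up to 4.37) and DOCK5 (8 of 16). The coactivator gene WWTR1, encoding TAZ, had 4 of 25 and TEAD1 3 of 18. ASAP1 held the furthest gain, at 5.05 (csaw FDR 3.38e-13). ANKRD1, a target often used to read YAP activity, had 1 region and it was lost, by 1.70, so the list did not move one way. AP-1 factors themselves stood at the background, with 7 of 43 regions gained (16.3%). FOSL1, which encodes FRA-1, held 3 of these in 4 regions, up to 2.25, ATF3 held 2, and FOSL2 and JUNB 1 each.

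Axon guidance cues and receptors, many of which act in epithelial migration, had gains in 49 of 251 regions (19.5%) and losses in 10, at 19 and 8 of 33 genes. EPHB2 was gained in all 5 regions and SEMA3B in all 3, and NRP2, a neuropilin, in 7 of 12 with 1 loss. SLIT3 and NTN4, secreted cues, reached 3.92 and 3.81. EPHB4 and SEMA6A fell, to -3.11 and -2.19. Senescence and plasminogen genes were gained in 19.7% of 61 regions and lost in 4.92%. IGFBP7 rose in all 3 of its regions, while RB1 lost 3 of 16. Neither of the regions that overlap PLAU was called (centred values 0.92 and 0.78). The region that rose by 3.47 (csaw FDR 2.87e-09) has PLAU only as a flanking gene, lies 11304 bp from the GENCODE start, and is not among the 19.7%.

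Notch and WNT genes had 14 gains in 92 regions (15.2%) and no loss. The gains were at WNT ligands, WNT7A (2 of 2, up to 3.54), WNT7B (3 of 4, up to 3.47) and WNT9A (3 of 4), WNT5B and WNT10A, at the WNT inhibitors DKK1 and DKK3, and at TCF7L1, a nuclear factor of the pathway. No Notch gene of the list was called. Of TGF-beta genes, 12.2% of 156 regions were gained and 3.21% lost. LTBP2 and LTBP1, the latent TGF-beta binding proteins, had 7 of 11 and 3 of 4 gained, and SMAD3 4 of 21, whereas SMAD7, the inhibitory SMAD, lost 2 of 8. PI3K-AKT genes were gained in 14 of 117 regions (11.97%) and lost in 5.13%. Among them INPP4B, a phosphatase of the pathway, rose by 3.38 at its promoter, and PIK3R1, the regulatory subunit of PI3K, lost 3 of 8 regions with a fall of 3.04.

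Genes of the epithelial-mesenchymal transition were gained in 12.2% of 98 regions and lost in 5.10%. SNAI1, the factor SNAIL, lost 3 of 6 regions, by 2.19 over its start (csaw FDR 1.88e-05), and FOXC2 lost both of its regions. OVOL1, an epithelial repressor of the transition, rose by 2.97 and PRRX1, a mesenchymal factor, by 2.88, each in its only region. The interferon list had 12.8% of 39 regions gained, 3 of the 5 gains at IRF1, and 1 loss at BST2 (-2.15). Mitosis and proliferation genes had 7 gains in 62 regions (11.3%), 6 of them at CDK6 and 1 at ECT2, and a median centred value of -0.43. Luminal lineage genes had 8.70% of 46 regions gained and 4.35% lost, with gains at ESR1, FOXA1 and CD24 and losses at GATA3 and BCL11A. Ribosomal protein genes, a group of steady expression, had 4.26% of 47 regions gained and none lost. Promoter-flagged regions, of which 10.4% gained over the whole table, were 34 of the interferon, 35 of the luminal and 44 of the ribosomal regions.

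The list of ANCO1 with its partners among coactivators and deacetylases had 13.9% of 79 regions gained and 10.1% lost, with a median centred value of -0.50. Of the 11 gains 5 were at ANKRD11 itself. Without it the partners had 6 gains (9.52%) and 8 losses (12.7%) in 63 regions. KAT2B, the acetyltransferase PCAF, had 1 loss and NCOR1, NCOA3 (AIB1), HDAC4 and ANKRD12 1 gain each.

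Markers of other cell types moved too. Neural markers were gained in 9 of 21 regions (42.9%) and lost in none, with 4 gains at MBP, 2 at GFAP, 2 at SYT1 and 1 at RBFOX3, the highest share of the 24 lists in a small list. MBP had 2 regions that overlapped one enriched over input in shCTRL cells, and no region at GFAP, SYT1, RBFOX3 or SYP overlapped one. In shANCO1 cells 1 gained region each at GFAP, SYT1 and RBFOX3 overlapped an enriched one, with log2 enrichments over input of 4.11, 7.03 and 5.38, and none at SYP did. Endothelial and fibroblast markers were lost in 8 of 37 regions (21.6%), every loss at PECAM1, an adhesion protein of endothelium and platelets, and gained in 3 (8.11%), at VWF, CDH5 and PDGFRB. The immune list had 1 gain and 1 loss in 10 regions. The part of other cell types in these results was not tested.

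Gains and losses were spread unevenly along chromosomes. In bins of 5 Mb with at least 20 regions, 31 of 524 had a median centred value of at least 0.5 and 47 of at most -0.5. Chromosome 3 held 10 of the 31 high bins in its 37. At 130 to 135 Mb of that chromosome 29 of 67 regions were gains and none losses, with ATP2C1, a Golgi calcium pump, holding 4 of them, and at 110 to 115 Mb PHLDB2, a cortical microtubule anchor, held 8. The bin with the highest median, 0.99, was chromosome 9 at 5 to 10 Mb, with 18 gains and no loss in 37 regions. Among its gains were 2 at PDCD1LG2, 1 at CD274, which encodes PD-L1, 3 at KDM4C, a histone demethylase, 2 at GLDC and 1 at UHRF2. Chromosome 5 at 170 to 175 Mb had the most losses, 30 of 142 regions, of which 10 were at SH3PXD2B and 5 at FOXI1. High and low bins thus lay on several chromosomes, 11 for the high and 19 for the low.

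The letters in the regions were compared in the 300 bp at the midpoint of each. A match to the AP-1 letters TGANTCA, which read the same on both strands, was present in 22.2% of gains (Wilson 95% interval 21.2 to 23.1), 9.33% of losses (8.18 to 10.6) and 11.8% of regions called neither, and in 13.4% of all regions. The shown gains at ITGB1 and LAMB3 held 5 and 2 matches over their whole length. Away from promoters the shares were 23.1%, 10.6% and 16.7%. Gains had a lower GC content than the uncalled regions, with medians of 46.7% and 51.7%, and losses the same as gains, so shares were also read within ranges of GC. In each of 5 ranges outside promoters the share was higher in gains (19.6% to 25.1%) than in uncalled regions (13.8% to 18.3%). It was lowest in losses (4.65% to 14.1%), although from 50% to 55% GC the interval of the losses, 10.1 to 19.4, covered the uncalled share. Regions with no match were gained in 14.6% of cases, with 1 match in 26.2% and with 2 in 35.3%, and 72 regions with 3 or more in 25%. RefSeq promoters of 300 bases that lay inside a gain held AP-1 letters in 18.9% of 387 cases, inside a loss in 10.1% of 169 and inside an uncalled region in 5.65% of 8869, against 7.72% of all 34943.

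**Figure D5:**
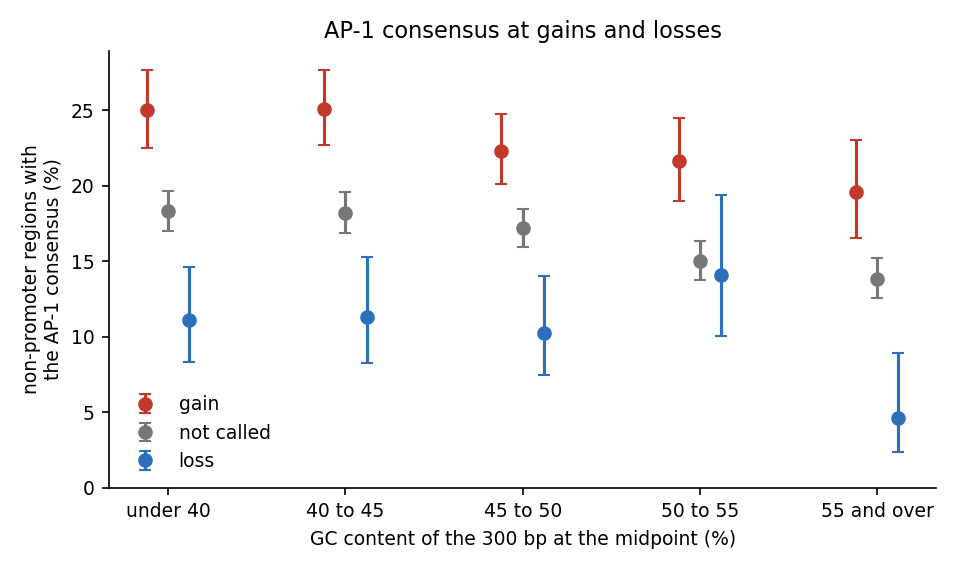
Percent of regions outside promoters whose central 300 bp hold the AP-1 letters, by range of GC content, for gains, losses and uncalled regions, with Wilson 95% intervals. Gains lie above uncalled regions in all 5 ranges, and losses below them, with overlapping intervals from 50% to 55% GC.

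Other letters were compared in the same way. The TEAD letters GGAATG were in 20.0% of gains, 18.0% of losses and 16.9% of uncalled regions, and the RUNX letters TGTGGT in 21.8%, 17.7% and 17.4%. Outside promoters the TEAD shares were 20.4%, 18.7% and 19.4%, with overlapping 95% Wilson intervals (19.3 to 21.5%, 16.7 to 20.8% and 18.8 to 20.0%), and the RUNX shares were 22.7%, 18.4% and 21.2%. The KLF and SP letters GGGCGG, frequent in GC-rich promoters, were less frequent in gains (7.90%) than in losses (11.8%) and uncalled regions (23.0%), and outside promoters the shares were 5.79%, 6.55% and 8.42%. A match to the NF-kB consensus was in 0.439% of gains (32 regions), 0.690% of losses (15 regions) and 0.476% of uncalled regions, with overlapping 95% Wilson intervals. A match describes letters and not a bound factor.

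Enrichment over input gave a level for each group, from tables that share these libraries and are therefore not independent. Of gains, 34.1% overlapped a region enriched in shANCO1 cells and 7.81% one enriched in shCTRL cells, and 65.8% overlapped neither. Of losses, 50.1% overlapped one enriched in shCTRL cells, 16.6% in shANCO1 cells and 49.8% neither. Uncalled regions overlapped them in 30.4% and 29.5% of cases. Of the named regions, 45 of 82 gains overlapped a shANCO1 region and 4 a shCTRL region, and 34 of 53 losses a shCTRL region and 10 a shANCO1 region, by any shared base. Where at least 50% of the region had to be covered, these fell to 11 gains in shANCO1 cells and 11 losses in shCTRL cells. MICAL2, AIG1 and FRMPD4 had log2 enrichments of 7.23, 7.45 and 7.43 over input in shANCO1 cells at their furthest gains, and no enriched overlap in shCTRL cells. KIRREL3 and NTRK2 showed the reverse, with 7.34 and 6.90 in shCTRL cells only.

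At the same places 10A cells differed from this picture by values set side by side, since the difference between the lines could not be tested without counts. Relative to its own median of 0.76, the 10A table held gains in 574 of 50284 regions (1.14%) and losses in 113 (0.225%). Centring takes out any rise shared by most 10A regions, so these low counts do not show that 10A responded little. The IL1A region, at an uncentred 1.41 in 10A (csaw FDR 3.91e-07), passed the test but was not called, since its centred value was 0.65. The THSD4 region, at an uncentred 0.66 (csaw FDR 0.437), did not pass the test. The paper reports more up-regulated peaks in the parent line than in DCIS cells. A 10A region was present at 84.5% of DCIS gains, 68.6% of uncalled regions and 33.7% of DCIS losses. Centred on its median, 10A had a median of 0.12 at the gains, -0.05 at the losses and 0.04 elsewhere. Of 6165 covered DCIS gains, 78 (1.27%) were gains in 10A and 14 were losses there. Of 732 covered DCIS losses, 9 (1.23%) were losses in 10A and 6 were gains there. Covered uncalled regions were gains in 10A in 0.76% of cases and losses in 0.17%. Over the 10 genes with the most gains 138 of 150 regions were present in 10A. Over the 10 with the most losses 16 of 119 were, and SDC2, ITPRID1, NTRK2, ITGA9 and VIT had none. These loss regions were therefore mostly regions that the 10A table did not test.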

How the data were processed

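H3K27Ac ChIP-seq of shANCO1 and shCTRL DCIS cells was analysed from the authors' tables. Its methods say that reads, sequenced from both ends, were mapped on GRCh38 by BWA and Rsubread, that samtools took out duplicates, and that csaw compared the groups. The submitters' processing notes also name FastQC and HOMER. The deposited log2 fold change is that of a representative window of each region, and the p-value and FDR deposited beside it are those of the authors' combined test. The other deposited columns give window counts, direction and gene names with promoter, exon and intron flags. Normalization, window filter, merging and promoter distance are not given in the sources used here. These columns are all comparisons made by the authors and no library values were used, so depth and replicate spread are unknown.

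Regions were called, and genes, lists, bins and motifs counted, with Python 3.11.15 and pandas 2.3.3, tested on simulated data. A gain or loss had FDR under 0.05 and lay at least 1 log2 unit from the table median. Overlap with other tables was at least 1 bp, and each region took the values of the table region sharing the most bases. Wilson intervals are at 95% (statsmodels 0.14.6). Annotation was GENCODE 44, coordinates are 1-based on GRCh38, and promoter sequences are from RefSeq. Named genes were ANKRD11, the 10 with most gains and the 10 with most losses, the 8 promoter gains and 8 promoter losses furthest from the median with at least 5 windows, and up to 3 genes per list and direction. Other genes were added after their values were seen, and some genes that the rule names are not reported here. The members and lists were chosen with earlier results of these data known. Alternatives were other FDR limits, distances, window minimums, gene columns, motif windows, bins and overlap.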

Additional observations from a re-analysis of the deposited data

How the results depend on the processing

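No paired analysis was possible because the table holds 1 value per region and no library columns, and leaving out a replicate could not be run for the same reason. The alternatives run kept the deposited fold change and direction of every region, so no called value could change sign under them. With a distance of at least 2 log2 units, the number of gain regions fell from 7295 to 1583 and of genes with a gain from 3781 to 964. With at least 5 windows, 4524 gain regions were called. At FDR under 0.01, loss regions fell from 2175 to 1218 and genes with a loss from 1145 to 616, while 6500 gain regions were called. In each of these the change follows from the stricter rule. Bins of 2 Mb put 25.9% of bins at least 0.5 from the median, against 14.9% of 5 Mb bins. When at least 50% of a region had to be covered, 11 named gains overlapped a shANCO1 enriched region and 11 named losses a shCTRL one. The AP-1 share of gains was 15.2% in 200 bp and 35.3% in 500 bp, and that of losses 5.98% and 15.6%. Of the 135 named regions, 12 lost their call at FDR under 0.01, 23 at a distance of 2, 23 with at least 5 windows and 2 where a window in the other direction was barred. Lists that crossed the share of all regions under an alternative were senescence, AP-1 factors, integrins, interferon, Notch and WNT, and the ANCO1 partners. Depth is unknown, so regions without a call cannot be read as unchanged.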
